A study of Mus musculus with 16 samples.

Results

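Interferon-stimulated genes are the transcripts that cells make when an interferon binds its receptor, and 41 of them formed the module measured here in mouse dorsal skin. By the known preference of each gene, 24 were listed as responding mainly to type I interferon, 8 mainly to interferon gamma (type II interferon) and 9 to both. A gene was read through the probe sets that the platform annotation gives to its symbol alone. The probe set with the highest mean over the 16 arrays stood for the gene, and it was kept where it exceeded log2 4 in 2 or more arrays. Of the 41 genes, 34 were tested, among 12082 genes tested of 18194 with such a probe set: 17 type I-preferring, 8 type II-preferring and 9 responding to both. Isg15 and Ifi44 had no probe set of their symbol alone in the annotation used here. Oas2, Oasl1, Mx2, Zbp1 and Dhx58 stayed under the filter.

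Female C57/B6 mice (strain written C57/B7 in the array titles), 8.5 weeks old at day 0, gave a biopsy of whole dorsal skin before treatment. Their skin was then treated daily for 4 days, and a second biopsy of treated skin was taken at day 5. The day-5 groups were 3 arrays of skin treated with tofacitinib (mice 7, 8 and 9), 2 treated with ruxolitinib (mice 4 and 6) and 2 treated with dimethyl sulfoxide (DMSO), the vehicle (mice 2 and 3). The day-0 group was 9 arrays of untreated skin (mice 1 to 9), so 7 mice gave both biopsies. No genetic modification and no dose is stated in the labels, and all day-5 mice share the earlier biopsy and the daily application. A first biopsy, 4 days of application and the passage of time therefore cannot be told apart in any comparison of day 5 with day 0. The tofacitinib array of mouse 7 carries a description that names ruxolitinib, whereas its title, source and treatment fields name tofacitinib. It was kept as tofacitinib, and results that rest on it are given without it as well.

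Type I interferons bind a receptor served by the kinases JAK1 and TYK2, and interferon gamma binds one served by JAK1 and JAK2. The kinases phosphorylate STAT transcription factors, which bind the interferon-stimulated response element (together with IRF9) or the gamma-activated site in the promoters of target genes. In skin, these genes arm keratinocytes and resident immune cells against viruses and bacteria, and draw in T cells. Tofacitinib and ruxolitinib are inhibitors of Janus kinases that share a pyrrolopyrimidine ring and differ in their side groups.

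Expression was given as log2 values of single arrays, with array medians between 3.75 and 3.94. Probe sets that have no mouse transcript to bind, 27 in number, centred on 1.70 and went up to 2.43. A value at or under 2.43 is called background. Each array stood for 1 biopsy of whole skin, in which fewer cells of a type and less RNA per cell cannot be told apart. Differences were fitted with limma over all 12082 genes, with the mouse as a random block, and a gene was called where its Benjamini-Hochberg adjusted p was under 0.05.

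Most of the module was lower at day 5 than at day 0 in all 3 treatment groups. Of 34 members, 22 fell and 2 rose in tofacitinib-treated skin, where 27.4% of all genes tested fell and 22.7% rose (50.1% in all). In ruxolitinib-treated skin 18 fell and 1 rose, with 21.4% of all genes falling and 12.5% rising (33.9% in all). In DMSO-treated skin 15 fell and 1 rose, with 28.9% of all genes falling and 22.2% rising (51.1% in all). The median log2 difference from day 0 over the members was −1.15 with tofacitinib, −1.01 with ruxolitinib and −0.89 with DMSO, against −0.02, −0.03 and −0.05 over all genes in the same order. These comparisons share the 9 day-0 arrays and are not independent of each other. Without the mouse 7 array, 21 members fell and 0 rose in tofacitinib-treated skin, where 30.6% of all genes fell and 21.9% rose. The count of falls with ruxolitinib depended on how the mouse entered the fit, being 8 (with 6.92% of all genes falling) where mouse was a fixed block.

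**Figure D1:**
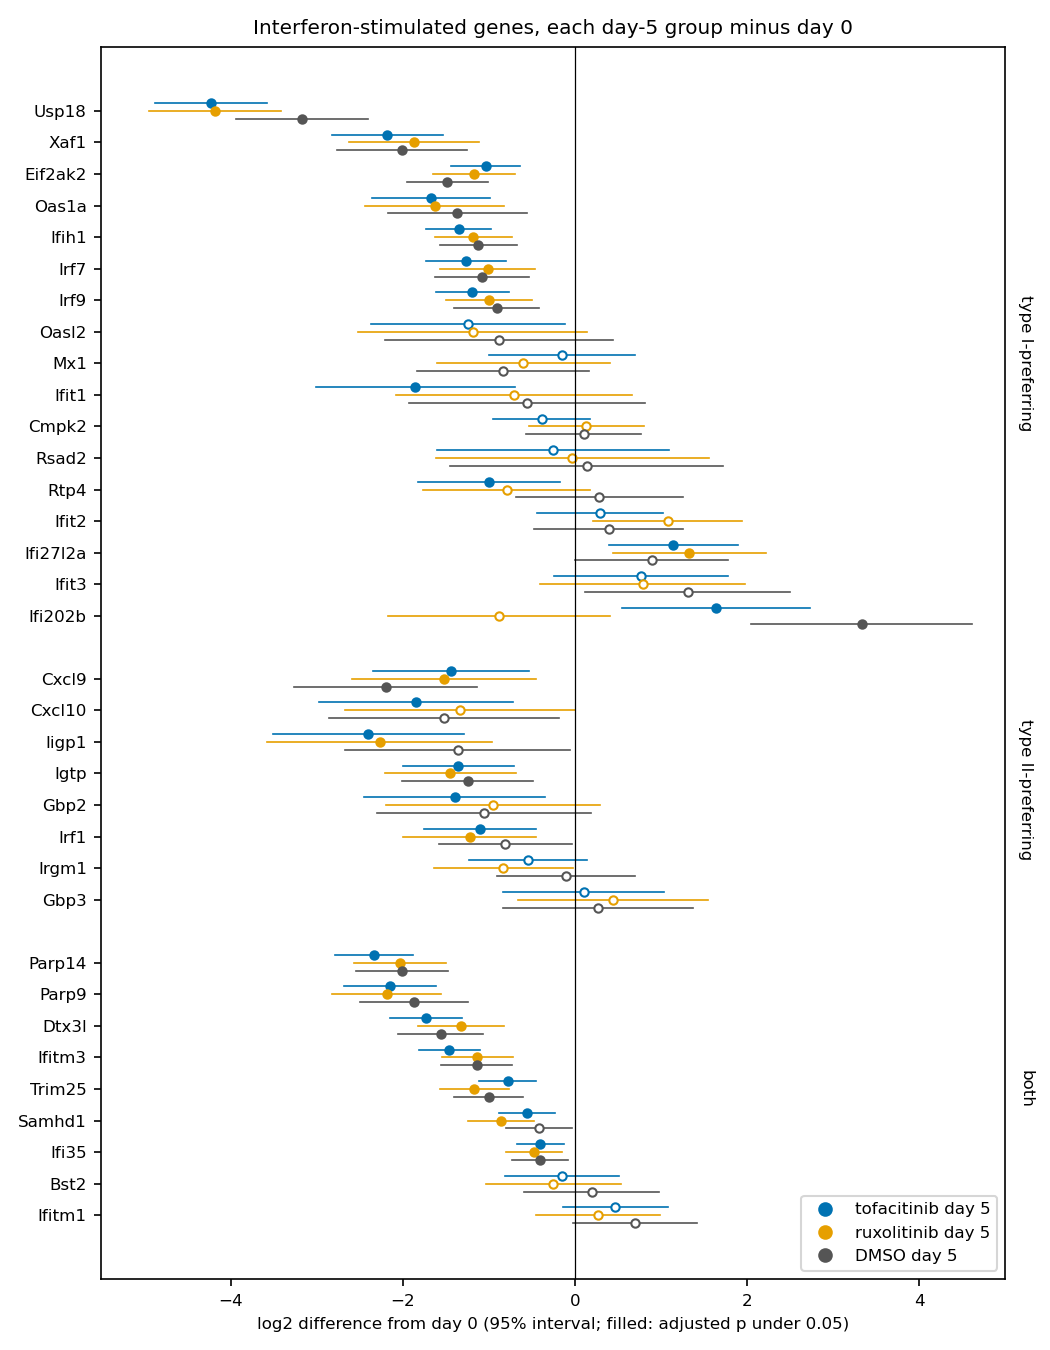
Log2 difference of each day-5 group from day 0 (x axis) for the 34 tested members, grouped by interferon preference, with 95% intervals. Points are blue for tofacitinib, orange for ruxolitinib and grey for DMSO, and filled where the adjusted p was under 0.05. Usp18 lies furthest to the left at −4.23, −4.18 and −3.17, and Ifi202b is the member whose groups are furthest apart.

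Averaged over the 34 members, the arrays stood −1.06 to −0.83 log2 units from the day-0 mean with tofacitinib, −0.93 in both ruxolitinib arrays, −0.68 and −0.55 with DMSO, and −0.48 to 0.72 at day 0. All 7 day-5 arrays were thus below the lowest day-0 array on this average. Type II-preferring members averaged −1.28 ± 0.24 (SD, n = 3) with tofacitinib, −1.17 with ruxolitinib and −0.91 with DMSO, with day-0 arrays between −0.80 and 1.41. Type I-preferring members averaged −0.82 ± 0.10 (SD, n = 3) with tofacitinib, −0.77 with ruxolitinib and −0.37 with DMSO, with day-0 arrays between −0.66 and 0.67. On this average both DMSO arrays lay within the day-0 range for the type I-preferring members, and no day-5 array did for the type II-preferring ones. The type I-preferring average includes Ifi202b, which differed from day 0 by 3.33 with DMSO. By the median over the type I-preferring members, both DMSO arrays (−0.84 and −0.55) lay below the lowest day-0 array (−0.51). Members that respond to both averaged −1.01 ± 0.27 (SD, n = 3) with tofacitinib, −1.02 with ruxolitinib and −0.82 with DMSO, and their day-0 arrays kept between −0.31 and 0.21.

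By class, 6 of 8 type II-preferring members fell with tofacitinib, 4 with ruxolitinib and 2 with DMSO, where 27.4%, 21.4% and 28.9% of all genes fell, so the count with DMSO was at the background. Of 17 type I-preferring members, 9 fell with tofacitinib, 7 with ruxolitinib and 7 with DMSO. Of 9 members that respond to both, 7 fell with tofacitinib, 7 with ruxolitinib and 6 with DMSO. No class was tested against another, and the share of a class that passed also depends on how widely its genes vary at day 0.

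**Figure D2:**
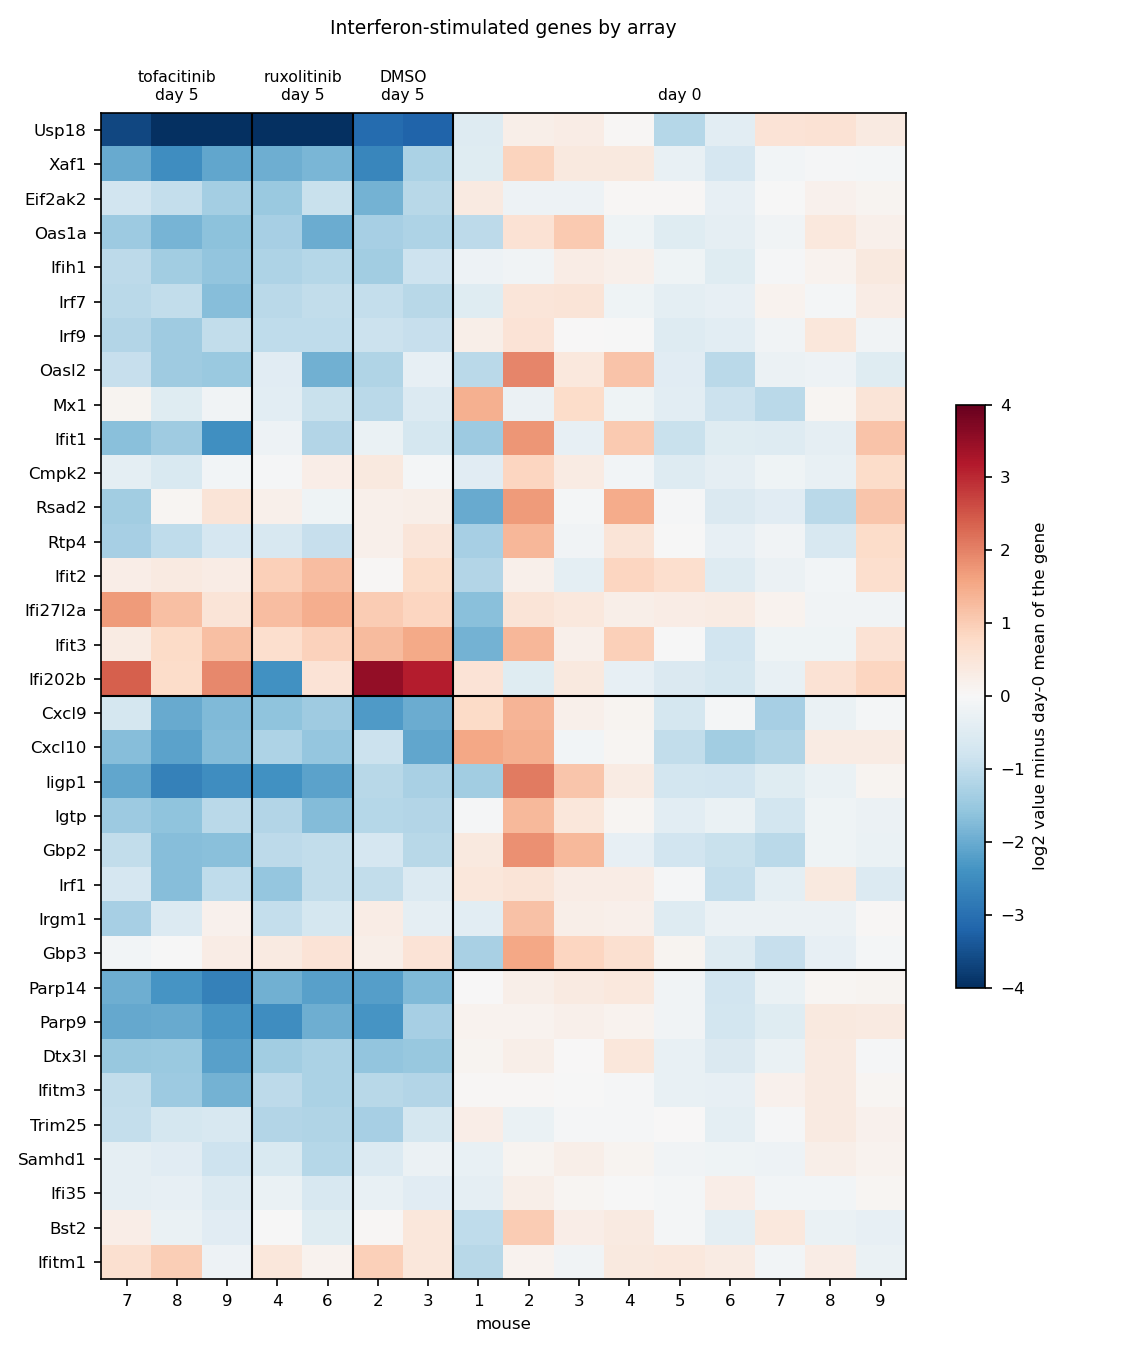
Log2 value of each member minus its day-0 mean (colour, saturated at −4 and 4) in each array (columns, by treatment and mouse). Rows are ordered by class, with horizontal lines between type I-preferring, type II-preferring and shared members. Blue columns fill most of the day-5 side, and mouse 2 is the reddest day-0 column. Ifi202b is red with DMSO, where its log2 values before the subtraction were 11.65 and 11.27, against a day-0 mean of 8.14.

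Within the 7 mice with both biopsies, 20 of 34 members were lower at day 5 in every mouse, which held for 24.1% of all genes. Only Ifi27l2a was higher at day 5 in every mouse (17% of all genes), and the other 13 were mixed. The number of members lower at day 5 was 25, 27 and 28 in tofacitinib mice 7, 8 and 9, 30 and 27 in ruxolitinib mice 4 and 6, and 31 and 26 in DMSO mice 2 and 3. The median paired difference was lowest in DMSO mouse 2, at −1.41 log2 units, and highest in ruxolitinib mouse 6, at −0.64. Mouse 2 also had the highest day-0 value of all mice in 17 of 34 members.

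Promoter windows of 7 members are shown because they carry the letters of both elements, of one, or of a repeated one, in genes that fell and in genes that did not. The windows come from RefSeq (GRCm38.p6), run 5′ to 3′ along the gene's strand from base −160 to base −1 before the transcription start, and have matches in capitals. The letters searched on both strands were GAAA, any 2 bases and GAAA again for the interferon-stimulated response element and TTCNNNGAA for the gamma-activated site, over windows reaching from 250 bases before to 50 bases after the start.
Oas1a (chr5:120907526-120907685, minus strand): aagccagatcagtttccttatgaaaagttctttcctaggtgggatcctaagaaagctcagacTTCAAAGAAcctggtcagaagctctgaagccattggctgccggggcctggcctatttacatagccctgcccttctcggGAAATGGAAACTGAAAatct
Igtp (chr11:58199396-58199555, plus strand): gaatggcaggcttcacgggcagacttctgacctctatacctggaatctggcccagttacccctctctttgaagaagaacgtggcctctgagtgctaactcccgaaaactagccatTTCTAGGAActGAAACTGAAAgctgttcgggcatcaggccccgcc
Irf1 (chr11:53769854-53770013, plus strand): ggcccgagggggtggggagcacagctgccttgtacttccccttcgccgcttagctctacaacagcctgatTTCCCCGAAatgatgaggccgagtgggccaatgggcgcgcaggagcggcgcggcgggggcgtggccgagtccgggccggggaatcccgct
Bst2 (chr8:71537473-71537632, minus strand): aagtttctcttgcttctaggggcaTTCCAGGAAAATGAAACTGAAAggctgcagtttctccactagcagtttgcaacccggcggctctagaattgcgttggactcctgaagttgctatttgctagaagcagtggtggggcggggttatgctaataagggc
Ifit3 (chr19:34583369-34583528, plus strand): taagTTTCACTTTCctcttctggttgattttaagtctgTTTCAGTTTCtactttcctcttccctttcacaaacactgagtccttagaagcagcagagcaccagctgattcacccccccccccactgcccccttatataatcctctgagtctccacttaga
Gbp3 (chr3:142559884-142560043, plus strand): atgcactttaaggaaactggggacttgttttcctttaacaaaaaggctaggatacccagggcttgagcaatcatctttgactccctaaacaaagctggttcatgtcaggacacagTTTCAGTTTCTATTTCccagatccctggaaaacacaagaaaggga
Ifi202b (chr1:173982845-173983004, minus strand): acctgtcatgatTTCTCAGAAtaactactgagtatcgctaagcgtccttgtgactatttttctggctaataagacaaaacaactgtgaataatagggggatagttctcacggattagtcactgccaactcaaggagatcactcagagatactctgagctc

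In Oas1a, 2 response elements overlap each other at −20 to −11 and −14 to −5, and a gamma-activated site lies at −98 to −90. Igtp has a gamma-activated site at −45 to −37 and a response element at −34 to −25, and Irf1 has a gamma-activated site alone, at −90 to −82. In Bst2 the gamma-activated site (−136 to −128) overlaps the first of 2 response elements (−130 to −121 and −124 to −115), so its capitals form 1 run. The matches of Ifit3 (−156 to −147 and −122 to −113) and Gbp3 (−45 to −36 and −39 to −30, overlapping) are response elements read on the opposite strand. Ifi202b has a gamma-activated site alone, at −148 to −140.

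Of the 41 members, 30 had a promoter in the table. The response element letters were in 14 of them (46.7%), against 3.99% of 27025 genes, and the gamma-activated site letters in 10 (33.3%), against 9.55% of those genes. Among the 34 tested members, the response element letters were found for 8 of 17 members with a window that fell with tofacitinib and for 5 of 10 with a window that did not. With ruxolitinib they were found for 5 of 14 that fell and 8 of 13 of the rest, and with DMSO for 5 of 12 and 8 of 15. The gamma-activated site letters were found for 7 of 17 members that fell with tofacitinib and 3 of 10 of the rest, for 7 of 14 and 3 of 13 with ruxolitinib, and for 5 of 12 and 5 of 15 with DMSO. These are counts of members with the letters in a window and were not tested.

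The ISG15 system and the ubiquitin and ADP-ribose ligases had 5 of 5 tested members lower in each day-5 group, where 27.4%, 21.4% and 28.9% of all genes fell with tofacitinib, ruxolitinib and DMSO. Isg15 itself, the listed gene that names the system, was not tested. Usp18, the protease that removes ISG15 from proteins and holds back signalling at the type I interferon receptor, fell furthest of all 34 members in each day-5 group. It read 3.15, 2.25 and 2.46 with tofacitinib, 2.52 and 2.68 with ruxolitinib and 3.71 and 3.60 with DMSO, against a lowest, median and highest day-0 value of 5.66, 7.04 and 7.39. Every day-5 array lay below every day-0 array, and 1 tofacitinib array was at background. Usp18 was 18.7-fold lower with tofacitinib (log2 −4.23 ± 0.31 SE, adjusted p = 3.55e-07), 18.2-fold lower with ruxolitinib (−4.18 ± 0.36, 3.13e-06) and 9.01-fold lower with DMSO (−3.17 ± 0.36, 1.25e-05) than at day 0. Within single mice its fall ranged from −5.14 to −3.33 log2 units.

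Parp9 and Dtx3l, partners in a ubiquitin ligase complex that modifies histones, and Parp14, an ADP-ribosyltransferase of the same gene cluster, fell alongside. Parp14 read 6.31, 5.91 and 5.56 with tofacitinib, 6.33 and 6.09 with ruxolitinib and 6.07 and 6.49 with DMSO, against 7.498, 8.33 and 8.68 (lowest, median, highest) at day 0. Parp9 read 6.49, 6.51 and 6.20 with tofacitinib, 6.05 and 6.60 with ruxolitinib and 6.17 and 7.21 with DMSO, against 7.80, 8.67 and 8.94 at day 0. Dtx3l read 8.31, 8.32 and 7.64 with tofacitinib, 8.42 and 8.54 with ruxolitinib and 8.22 and 8.32 with DMSO, against 9.24, 9.84 and 10.26 at day 0. No day-5 array of these 3 genes reached the day-0 range, and the 2 ruxolitinib arrays of Dtx3l lay above its other day-5 arrays. The log2 differences from day 0 were −2.33 ± 0.21, −2.03 ± 0.25 and −2.01 ± 0.25 for Parp14 and −2.15 ± 0.25, −2.19 ± 0.29 and −1.87 ± 0.29 for Parp9 with tofacitinib, ruxolitinib and DMSO (SE). Dtx3l differed by −1.73 ± 0.20, −1.33 ± 0.23 and −1.56 ± 0.23, and the adjusted p of the 9 differences lay between 2.35e-06 and 0.000673. The Dtx3l call with ruxolitinib was lost with mouse as a fixed block (0.0502). Trim25, a ubiquitin ligase that switches on the RNA sensor RIG-I, fell less, by 0.78, 1.17 and 1.003 log2 units.

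The 3 tested transcription factors that carry or amplify the response were lower. Irf9, which binds the response element with STAT proteins, fell by 1.19, 0.998 and 0.91 log2 units with tofacitinib, ruxolitinib and DMSO. Irf7, which amplifies type I interferon production, fell by 1.27, 1.01 and 1.08. Its day-5 arrays read 2.56 to 3.33, above the background of 2.43 but close to it. Irf1, an early target of interferon gamma, fell by 1.10 with tofacitinib (adjusted p = 0.00855) and 1.22 with ruxolitinib (0.0173), and its difference of −0.81 with DMSO did not pass (0.0737). The ruxolitinib calls of all 3 were lost with mouse as a fixed block and without ruxolitinib mouse 4. The DMSO calls of Irf7 and Irf9 were lost without DMSO mouse 3 (0.0613 and 0.0634), the Irf7 ruxolitinib call also without mouse 6, and the Irf1 tofacitinib call without mouse 8 or with the fixed block.

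Among the sensors, Ifih1 (MDA5, a sensor of long double-stranded RNA) and Eif2ak2 (PKR, a kinase that halts translation on such RNA) fell in each day-5 group, and the DNA-binding Ifi202b did the opposite in part. Eif2ak2 read 6.54, 6.35 and 5.95 with tofacitinib, 5.83 and 6.41 with ruxolitinib and 5.41 and 6.21 with DMSO, against 6.97, 7.35 and 7.66 at day 0. Its day-5 arrays all lay under the day-0 range, at −1.04 ± 0.19, −1.17 ± 0.22 and −1.48 ± 0.22 (adjusted p = 0.000526, 0.00112 and 0.000115). The 2 other Eif2ak2 probe sets did not pass with ruxolitinib (−0.46 and −0.03) or DMSO (−0.60 and −0.65). With tofacitinib 1 of them passed (−0.98, adjusted p = 0.0111) and the other did not (−0.26, 0.505). The ruxolitinib call of Eif2ak2 was lost when its probe sets were averaged or ruxolitinib mouse 4 was left out. Ifih1 differed by −1.35, −1.18 and −1.12 log2 units. With mouse as a fixed block the ruxolitinib calls of both genes were lost (0.0569 for Ifih1 and 0.0773 for Eif2ak2).

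Ifi202b, a type I-preferring gene of a clustered family of closely similar DNA-binding proteins, had day-5 group means further apart than those of any other tested member. It read 10.54, 8.86 and 10.05 with tofacitinib, 5.73 and 8.68 with ruxolitinib and 11.65 and 11.27 with DMSO, against 7.44, 7.85 and 9.01 at day 0. Both DMSO arrays were above every other array, the ruxolitinib arrays lay far from each other, and 1 tofacitinib array lay within the day-0 range. Against day 0 it rose 10.1-fold with DMSO (log2 3.33 ± 0.60 SE, adjusted p = 0.000521) and rose with tofacitinib (1.64 ± 0.51, 0.016), and with ruxolitinib the difference was −0.89 ± 0.60 (0.266). Without the mouse 7 array the tofacitinib difference was 1.14 (0.113), and the tofacitinib call was also lost without mouse 9 and with mouse as a fixed block (0.173). Without ruxolitinib mouse 4 the ruxolitinib difference was 0.65 (0.484), and without ruxolitinib mouse 6 it was −2.36 (0.0182).

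A second probe set, annotated with Ifi202b and LOC100044068 together and read after the values above were seen, gave other differences. It read 11.72, 11.30 and 11.24 with tofacitinib, 11.07 and 11.24 with ruxolitinib and 12.38 and 11.71 with DMSO, against 8.68 to 9.90 at day 0. All 7 day-5 arrays were above day 0, including both ruxolitinib arrays, and the rise was 2.03 (adjusted p = 2.78e-05) with tofacitinib, 1.82 (0.000399) with ruxolitinib and 2.67 (1.33e-05) with DMSO. The 2 probe sets therefore disagreed on the direction in ruxolitinib-treated skin. Transcripts of near-identical family members may bind both probe sets, so the values of Ifi202b are uncertain.

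**Figure D3:**
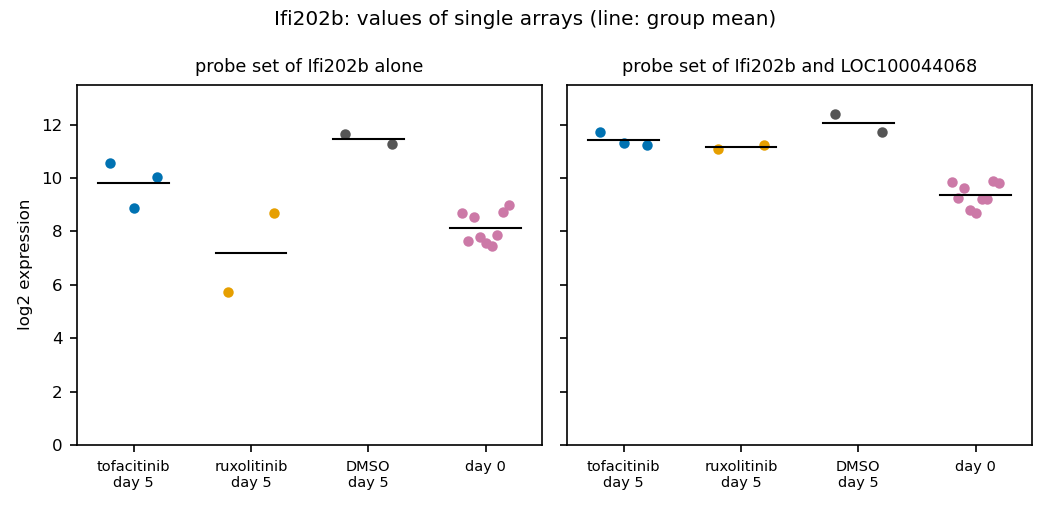
Log2 expression (y axis) in single arrays of the 2 probe sets that hold Ifi202b, by group, with lines at group means. The probe set of Ifi202b alone puts 1 ruxolitinib array at 5.73, under day 0, whereas the shared probe set puts both at 11.07 and 11.24, above day 0.

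The antiviral effectors were divided. Oas1a, which makes the second messenger that activates RNase L, fell by 1.67, 1.63 and 1.37 log2 units with tofacitinib, ruxolitinib and DMSO, whereas its relative Oasl2 did not pass in any group. The Oas1a call was lost with ruxolitinib without mouse 6 (0.0994) and with DMSO without either DMSO array (up to 0.102). Ifitm3, a membrane protein that blocks viral entry, fell by 1.46, 1.14 and 1.14. Its relative Ifitm1 differed by 0.47, 0.27 and 0.70, and Mx1, Rsad2 and Cmpk2 likewise did not pass. In the IFIT family, whose proteins bind viral RNA, Ifit1 fell with tofacitinib (−1.85 ± 0.54, adjusted p = 0.0116), with 1 of 3 arrays (mouse 9, 2.09) at background, and the call was lost without that array (0.0872). Ifit2 and Ifit3 lay above day 0 on average in each group without passing.

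Samhd1, which depletes the nucleotides that viruses need, read 8.01, 7.91 and 7.55 with tofacitinib, 7.77 and 7.25 with ruxolitinib and 7.82 and 8.13 with DMSO, against 8.09, 8.48 and 8.62 at day 0. The inhibitor-treated arrays were under the day-0 range and 1 DMSO array was within it. Samhd1 fell with tofacitinib (−0.56 ± 0.15, adjusted p = 0.00764) and ruxolitinib (−0.86 ± 0.18, 0.00221), and its difference of −0.42 ± 0.18 with DMSO did not pass (0.064) but did without the mouse 7 array (−0.44, 0.0368). The tofacitinib call was lost without mouse 9 (0.0801) and the ruxolitinib call without mouse 6 (0.0845). Bst2, or tetherin, which holds budding viruses at the cell surface, read 5.04, 4.48 and 4.29 with tofacitinib, 4.74 and 4.28 with ruxolitinib and 4.82 and 5.22 with DMSO, against 3.73, 4.67 and 5.78 at day 0. Its day-5 arrays all lay within the day-0 range, and no difference passed (−0.15, −0.25 and 0.19).

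Of the 5 GTPases that attack the vacuoles of intracellular microbes, 3 fell with tofacitinib, 2 with ruxolitinib and 1 with DMSO, the last being no more than the 28.9% of all genes that fell there. Igtp (Irgm3) read 6.31, 6.15 and 6.69 with tofacitinib, 6.61 and 6.02 with ruxolitinib and 6.62 and 6.60 with DMSO, against 7.04, 7.60 and 9.06 at day 0. All its day-5 arrays were under the day-0 range, and it fell by 1.35, 1.45 and 1.25 log2 units (adjusted p = 0.00226, 0.00641 and 0.00976). The ruxolitinib call was lost without mouse 6 (0.116), and the DMSO call without either DMSO array (up to 0.101). Iigp1 (Irga6) read 3.42, 2.79 and 3.01 with tofacitinib, 3.07 and 3.34 with ruxolitinib and 4.37 and 4.21 with DMSO, against 4.09, 5.23 and 7.58 at day 0. The 5 inhibitor-treated arrays lay under day 0 and under both DMSO arrays, which were within the day-0 range. Iigp1 was 5.28-fold lower than day 0 with tofacitinib (−2.40 ± 0.52, adjusted p = 0.00185) and fell with ruxolitinib (−2.27 ± 0.61, 0.011), and with DMSO it differed by −1.36 ± 0.61 (0.0764). Without the mouse 7 array the DMSO difference passed (−1.59, 0.0396), and the ruxolitinib call was lost without either ruxolitinib array (up to 0.109). A second Iigp1 probe set fell in all 3 groups, by 1.79 with tofacitinib, 1.64 with ruxolitinib and 1.68 with DMSO (0.00919, 0.0445 and 0.029). Its day-5 group means (2.02, 2.17 and 2.28) were at background, so the size of these falls is uncertain.

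Irgm1, a regulator of the other immunity-related GTPases, read 5.55, 6.34 and 7.06 with tofacitinib, 5.93 and 6.16 with ruxolitinib and 7.18 and 6.501 with DMSO, against 6.35, 6.64 and 8.06 at day 0. The ruxolitinib arrays and 2 tofacitinib arrays were under the day-0 range and the other arrays within it, and no difference passed (−0.54, −0.83 and −0.10). Gbp2 fell with tofacitinib (−1.40 ± 0.49, adjusted p = 0.0293), a call lost without mouse 8 or mouse 9 and with mouse as a fixed block, and Gbp3 differed by 0.10, 0.44 and 0.27 without passing.

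Both tested chemokines, ligands of CXCR3 that draw in T cells, had lower means in each day-5 group than at day 0. Cxcl9 read 3.60, 2.27 and 2.52 with tofacitinib, 2.67 and 2.86 with ruxolitinib and 2.01 and 2.32 with DMSO, against 2.96, 4.21 and 5.65 at day 0. Both DMSO arrays and 1 tofacitinib array were at background, and 1 tofacitinib array was within the day-0 range. It fell by 1.44 with tofacitinib (adjusted p = 0.0119) and 1.52 with ruxolitinib (0.0289), and with DMSO it was at least 3.61-fold lower (0.00248). The tofacitinib call was lost without mouse 8 or mouse 9 (up to 0.0746) and the ruxolitinib call without either ruxolitinib array (up to 0.174), and both with mouse as a fixed block.

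Cxcl10 read 4.43, 3.98 and 4.40 with tofacitinib, 4.89 and 4.58 with ruxolitinib and 5.28 and 4.07 with DMSO, against 4.74, 6.21 and 7.68 at day 0. The tofacitinib arrays were all under the day-0 range, and 1 array of each other day-5 group was within it. It fell with tofacitinib (−1.85 ± 0.53, adjusted p = 0.0104, or 0.0538 without mouse 8), and neither ruxolitinib (−1.34, 0.11) nor DMSO (−1.52, 0.0541) passed. Without the mouse 7 array the DMSO difference was −1.62 (0.0386).

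Of 4 other members, Xaf1, a binding partner of the apoptosis inhibitor XIAP, fell in each group and Ifi27l2a rose with both inhibitors. Xaf1 read 4.13, 3.63 and 4.06 with tofacitinib, 4.18 and 4.30 with ruxolitinib and 3.502 and 4.85 with DMSO, against 5.47, 6.04 and 7.005 at day 0. No day-5 array reached the day-0 range, and the differences were −2.18 ± 0.30, −1.87 ± 0.35 and −2.01 ± 0.35 (adjusted p = 6.28e-05, 0.00114 and 0.00043). With mouse as a fixed block the ruxolitinib call was lost (0.0535). Ifi27l2a, a small hydrophobic protein, was among the brightest members, with 12.65, 12.14 and 11.46 with tofacitinib, 12.19 and 12.41 with ruxolitinib and 11.97 and 11.79 with DMSO, against 9.28, 11.16 and 11.46 at day 0. All day-5 arrays but tofacitinib mouse 9 were above the day-0 range. It rose with tofacitinib (1.15 ± 0.35, adjusted p = 0.0153) and ruxolitinib (1.33 ± 0.42, 0.0234), its difference of 0.89 ± 0.42 with DMSO did not pass (0.0871), and without the mouse 7 array the tofacitinib difference was 0.89 (0.0712). The tofacitinib call was also lost without mouse 8, and the ruxolitinib call without either ruxolitinib array (up to 0.17).

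Rtp4, a chaperone of G protein-coupled receptors, read 2.82, 3.13 and 3.47 with tofacitinib, 3.52 and 3.21 with ruxolitinib and 4.36 and 4.62 with DMSO, against 2.83, 4.01 and 5.47 at day 0. All day-5 arrays but 1 tofacitinib array fell inside the day-0 range. Its difference was −1.002 ± 0.39 with tofacitinib (adjusted p = 0.0427, or 0.125 without the mouse 7 array and kept in 11 of 25 alternatives, being lost without any 1 tofacitinib or DMSO array), −0.79 with ruxolitinib (0.189) and 0.28 with DMSO (0.623). Ifi35, which binds a partner protein in cytoplasmic complexes, fell by 0.40, 0.47 and 0.40 log2 units, and all 3 calls were lost with each array centred on its median. Its DMSO call was kept in 16 of 26 alternatives and lost without either DMSO array (up to 0.272), the tofacitinib call was lost without mouse 9 and the ruxolitinib call without mouse 6. Another Ifi35 probe set passed in no group. The mean of a further probe set differed from day 0 by −0.77 with tofacitinib, −0.90 with ruxolitinib and −0.65 with DMSO. Fitted with limma on its own, that probe set passed with DMSO (adjusted p = 0.0154).

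**Figure D4:**
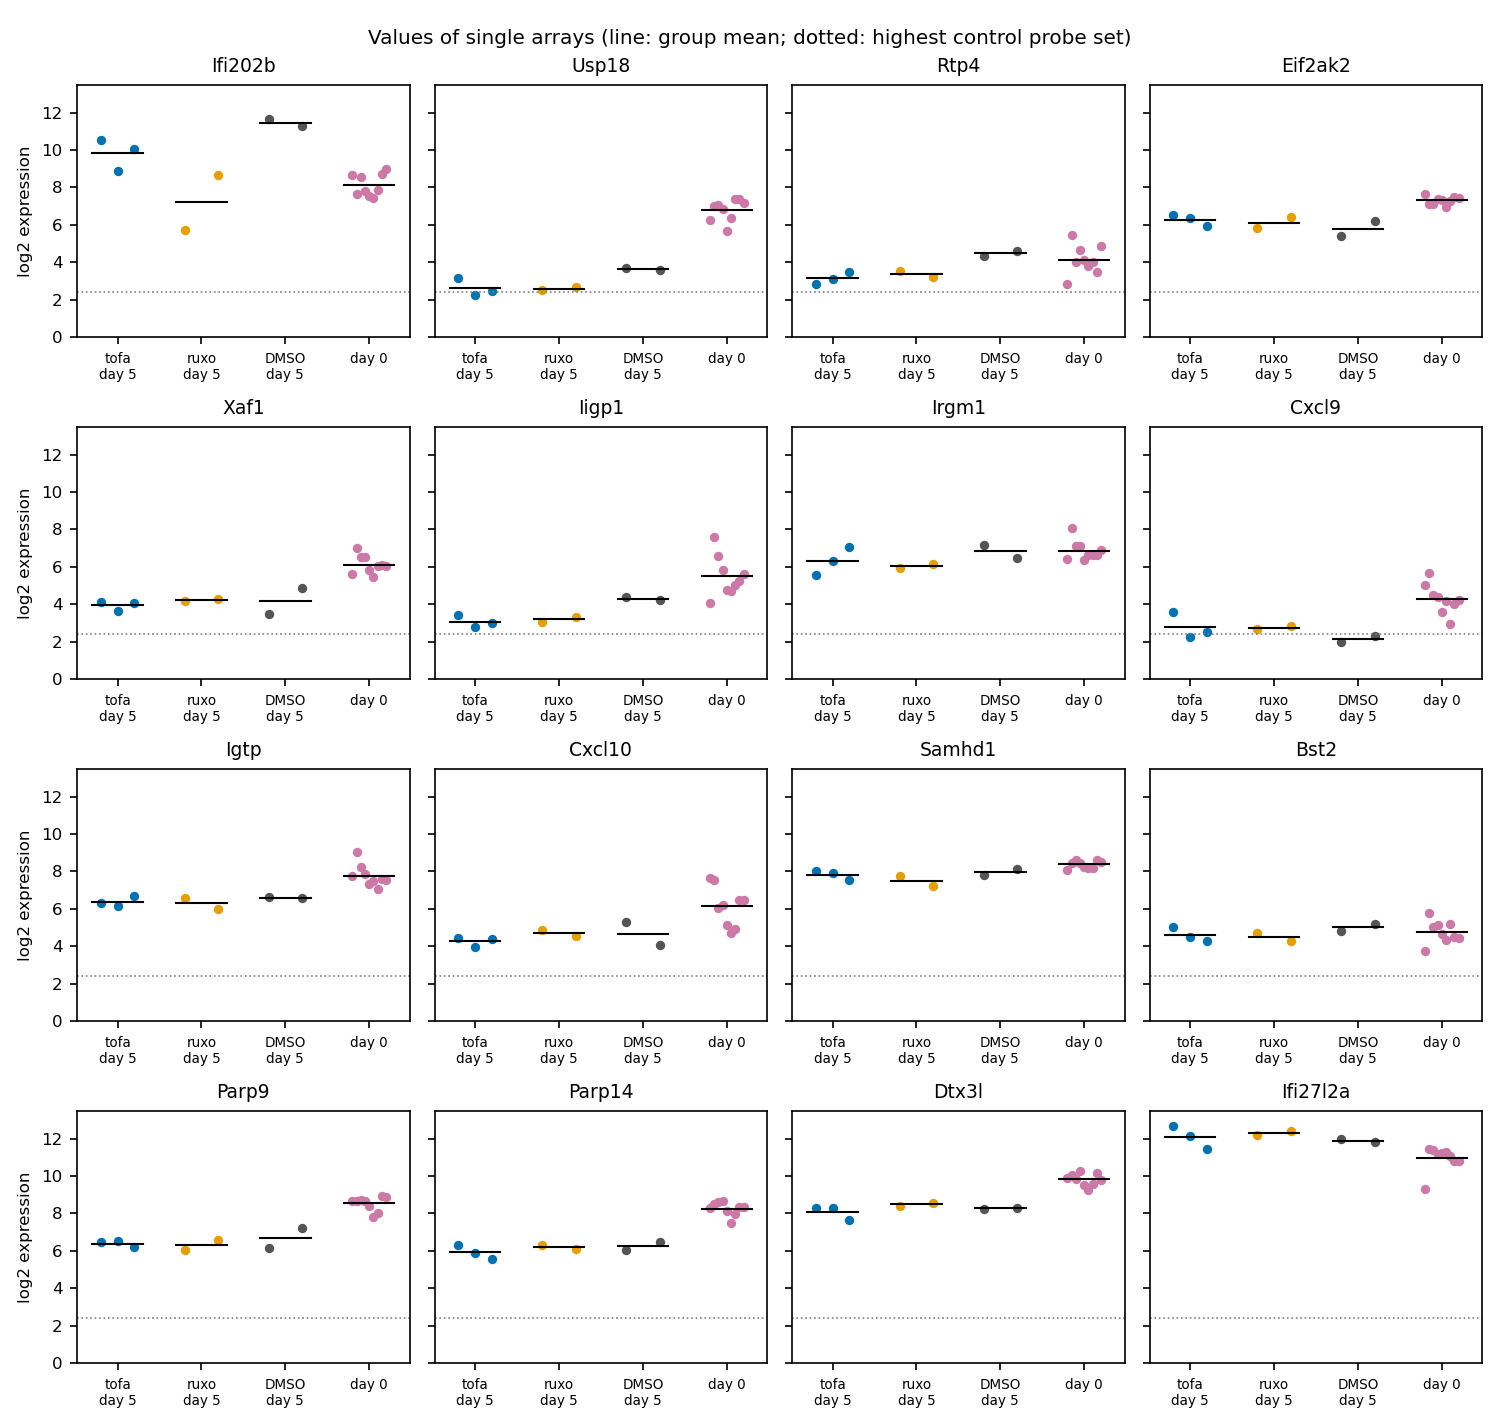
Log2 expression (y axis) of 16 members in single arrays, with a panel per gene, a point per array and a line at each group mean. The dotted line is the highest control probe set, at 2.43. Usp18, Parp9, Parp14, Dtx3l, Xaf1, Eif2ak2 and Igtp keep every day-5 array under day 0, whereas Bst2 overlaps throughout.

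Inhibitor-treated skin was set against DMSO-treated skin with both taken at day 5, so that biopsy and time were shared while the mice differed. At day 0 the mice later given DMSO had the highest type II-preferring averages (1.41 and 0.54, against at most 0.18 in the others). In tofacitinib-treated skin 0 of 34 members were called lower and 0 higher, with 0% of all genes lower and 0.166% higher (0.166% in all). In ruxolitinib-treated skin 1 member, Ifi202b, was lower and 0 higher, with 0.116% of all genes lower and 0.406% higher (0.521% in all). For the mean of both inhibitors the count was again 1 lower (Ifi202b) and 0 higher, with 0.0993% of all genes lower and 0.836% higher (0.935% in all). At an unadjusted p under 0.05, limma gave 3 members lower with tofacitinib, 2 with ruxolitinib and 3 for their mean, and 8.39%, 15.7% and 13.9% of all genes in either direction, so the members' counts were near or under the background. The median log2 difference over the members was −0.29 with tofacitinib, −0.12 with ruxolitinib and −0.18 for their mean, with 26 of 34 members below 0 in the last. All members share the same 2 DMSO arrays, so their signs are not independent. The medians and the count were not set against those of all genes and were not tested.

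Ifi202b was 18.6-fold lower with ruxolitinib than with DMSO (log2 −4.21 ± 0.79 SE, 95% interval −5.89 to −2.54, adjusted p = 0.031). The mean of both inhibitors differed from DMSO by −2.95 ± 0.66 (0.0495), and tofacitinib alone by −1.69 ± 0.72 (0.513). Without ruxolitinib mouse 4 the differences were −2.68 (0.169) and −2.20 (0.0972), without DMSO mouse 2 −4.09 (0.183) and −2.77 (0.369), and without DMSO mouse 3 −4.45 (0.114) and −3.13 (0.158). The call with ruxolitinib was kept in 20 of 26 alternatives. That for both inhibitors was kept in 6 of 26, and was also lost without tofacitinib mouse 7 or 8 or any 1 of the 9 day-0 arrays. Without the tofacitinib mouse 7 array the differences were −4.15 (0.0224) and −3.17 (0.0612). With mouse as a fixed block they were −3.79 (0.265) and −2.94 (0.534), and the shared probe set gave −0.85 (0.306) and −0.75 (0.333).

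Usp18 read lower in each of the 5 inhibitor-treated arrays than in either DMSO array, as did Rtp4, Iigp1, Irf9 and Ifit3, and none of these differences passed. Ifi202b was split in the same way. The share of all genes with such a split was not counted. Within mice, Usp18 differed from day 0 by −3.33 and −3.48 with DMSO and by −5.14 to −3.70 with inhibitors. Rtp4 differed by −1.11 and 0.61 with DMSO and −1.40 to −0.36 with inhibitors, and Iigp1 by −3.21 and −2.39 and −2.75 to −1.39. Of the 7 mice with both biopsies, DMSO mice 2 and 3 had the highest day-0 Iigp1 (7.58 and 6.60). With mouse as a fixed block the Iigp1 difference between both inhibitors and DMSO was 0.66 (adjusted p = 0.701). For Usp18 the mean of both inhibitors differed from DMSO by −1.03 ± 0.39 (95% interval −1.87 to −0.19, adjusted p = 0.246). For Rtp4 it was −1.18 ± 0.50 (−2.25 to −0.12, 0.3) and for Iigp1 −0.97 ± 0.67 (−2.41 to 0.46, 0.551). The second Iigp1 probe set gave −0.03, which cannot show whether the groups differ, since its day-5 group means were all at background. Irgm1 (−0.58, 0.563), Bst2 (−0.39, 0.689), Parp9 (−0.30, 0.7) and Samhd1 (−0.29, 0.541) lay on the same side, and Cxcl9 (0.72, 0.59) on the other. With 2 DMSO arrays, the intervals leave room for differences of more than 1 log2 unit in most of these genes.

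**Figure D5:**
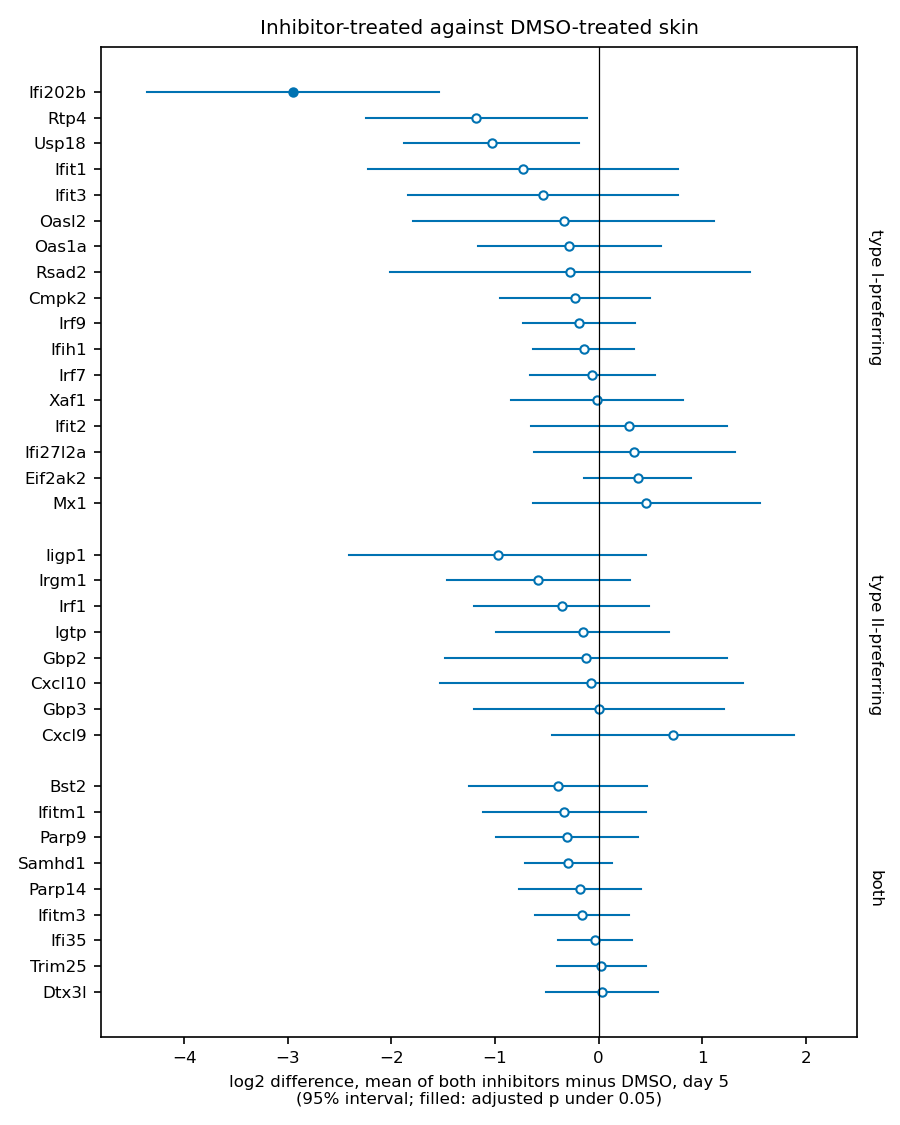
Log2 difference between the mean of both inhibitors and DMSO at day 5 (x axis) for the 34 tested members, with 95% intervals and points filled where the adjusted p was under 0.05. Ifi202b alone is filled, at −2.95, and the intervals of Usp18 and Rtp4 also end below 0 before adjustment.

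Between the inhibitors, 1 pair was compared at the same time, with no dose stated for either, and p-values were adjusted over all genes. Of 34 members 0 were called higher or lower with tofacitinib than with ruxolitinib, with 0.0248% of all genes lower and 0% higher, and 1 member (Ifi202b) was higher at an unadjusted p under 0.05, which 5.67% of all genes passed. The differences ran from −1.14 for Ifit1 to 2.53 for Ifi202b (95% interval 0.998 to 4.06, adjusted p = 0.575). For Usp18 the difference was −0.04 (−0.96 to 0.87, 0.992), for Iigp1 −0.13 (−1.69 to 1.42, 0.986) and for Cxcl9 0.09 (−1.18 to 1.35, 0.99). These intervals are too wide to show that the drugs act alike on any of them.

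Before treatment, the module varied between mice more than most genes did. The median day-0 SD was 0.58 log2 units over the 34 members (n = 9) and 0.256 over all genes tested. Rsad2 (SD 1.23), Ifit1 (1.07), Iigp1 (1.07) and Cxcl10 (1.06) varied most. Mouse 2 held the highest value in 17 members, mouse 1 the lowest in 14 and mouse 6 the lowest in 12. Members responding to both interferons had the narrowest day-0 range of their class average.

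Upstream genes of the pathway were lower in part, where 27.4% of all genes fell with tofacitinib, 21.4% with ruxolitinib and 28.9% with DMSO. Of 16 listed ligands 3 were tested, of which 1 fell with tofacitinib, 1 with ruxolitinib and 2 with DMSO. Ifnz, an interferon zeta (limitin) gene, fell by 2.43 log2 units with tofacitinib, 2.79 with ruxolitinib and 2.45 with DMSO. Ifnb1 (1.86 to 2.22), Ifna4 (1.30 to 1.83) and Ifng (2.05 to 2.52) stayed under the filter and within the range of the control probe sets or next to it. Of 18 tested receptor and signalling genes, 9 fell with tofacitinib, 9 with ruxolitinib and 7 with DMSO. They included Ifnlr1, a receptor chain of type III interferon (−2.83, −2.72 and −3.69), the kinase gene Tyk2 (−1.47, −1.35 and −1.73) and the receptor gene Ifnar1 (−0.87, −1.03 and −1.05). Of 11 tested genes that induce interferon, 5, 3 and 5 fell, the count with ruxolitinib being near the share of all genes. Among them were the RNA sensor Tlr3 (−1.84, −1.85 and −2.14) and the kinase gene Ikbke (−2.19, −2.09 and −2.61). Other genes of these lists had higher means in each day-5 group. Examples are Ptpn2 (10.85, 10.97 and 10.82, against 10.41 at day 0), Tbk1 (10.22, 10.25 and 10.10, against 9.90) and Mavs (8.12, 8.10 and 8.15, against 7.69).

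Other interferon targets outside the module were read from further lists, against the same shares of all genes. All 9 tested genes of the immunoproteasome and class I antigen loading were lower in each day-5 group, led by the proteasome subunit gene Psmb9 (−3.75 with tofacitinib, −3.69 with ruxolitinib and −3.56 with DMSO). Of 33 further interferon-stimulated genes tested, 21 fell with tofacitinib, 15 with ruxolitinib and 16 with DMSO. Ifi204, of the same family as Ifi202b, rose in each group (1.65, 1.77 and 1.78). None of these listed genes passed between inhibitors and DMSO.

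Markers of some cell types moved in the same comparisons. With tofacitinib, ruxolitinib and DMSO, 27.4%, 21.4% and 28.9% of all genes fell and 22.7%, 12.5% and 22.2% rose. The summed level of 6 T cell markers with a probe set (log2 of the sum) was 8.56 to 9.73 with tofacitinib, 8.40 to 9.14 with ruxolitinib and 8.51 to 8.79 with DMSO, against 9.74 to 10.97 at day 0. Of 5 tested T cell markers, 4, 5 and 5 fell, and Cd3d was at background in the DMSO arrays. All 8 basal keratinocyte markers fell in each group, with a summed level of 14.8 to 15.0, 14.8 to 15.2 and 14.7 to 14.8, against 15.5 to 15.8 at day 0. Of 7 suprabasal keratinocyte markers, 2, 0 and 3 fell and 1, 1 and 0 rose. Apart from the falls with DMSO, these counts were near or under the shares of all genes. Among the 7, 1 (Krt1) was higher for the mean of both inhibitors than with DMSO (0.68, adjusted p = 0.0435). Of 6 Langerhans cell markers, 3, 3 and 1 fell, the last being under the share of all genes. Macrophage markers rose in 5 of 8 in each group, fibroblast markers in 5 of 7 in each, and endothelial markers in 8, 7 and 7 of 8. The summed level of 4 adipocyte markers was 13.77 to 14.08, 13.82 to 14.06 and 13.74 to 13.82, against 10.32 to 13.68 at day 0. For 9 skeletal muscle markers it was 16.57 to 16.73, 16.56 to 16.57 and 16.66 to 16.75, against 15.97 to 16.50 at day 0. Every day-5 array was thus above every day-0 array on both sums. The summed level of 5 natural killer cell markers was 5.76 to 6.36 with tofacitinib, 6.08 to 6.37 with ruxolitinib and 6.01 to 6.06 with DMSO, against 6.496 to 6.996 at day 0. Its members Ncr1 and Gzma were at background in all groups, and Klrk1 in the day-5 groups. The plasmacytoid dendritic cell marker Spib was at background in all groups. The part of these changes in the module's differences was not tested.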

How the data were processed

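Whole-skin RNA was amplified with the Ovation kit, per the labels' protocols, and hybridised to arrays whose probe set names have the Affymetrix form. The deposited table holds log2 values of 45101 probe sets in 16 arrays, made by the authors with GCRMA, per the submitters' processing notes. Neither its version nor a joint normalization of the arrays is stated, and a joint step would pull arrays towards one distribution. GCRMA estimates background from probe sequence, so folds of dim genes depend on that estimate.

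Of these probe sets, 34958 have 1 gene symbol, 932 have several and 9211 are not listed in the platform annotation used here. Genes were chosen and filtered as given above. limma 3.58.1 in R 4.3.3 fitted 4 group means to 16 arrays with mouse as a random block (duplicateCorrelation, consensus 0.0983), followed by eBayes and Benjamini-Hochberg adjustment over 12082 genes in each of 7 comparisons. The fit was tested on simulated data with known changes. Intervals are 95%, and the small number of arrays limits the precision. Separate mice are the replicates, and each biopsy was assayed once. Promoters and figures were handled in Python 3.11.15.

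The pairing comes from the labels, which give both biopsies of an animal 1 mouse number. The correlation of the deviations within the 7 pairs ran from −0.183 to 0.178, and 2 were over 0.1. Of the 7 day-5 arrays, 1 correlated best with the day-0 array of its own mouse, so the pairing rests on the labels.

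Values in every array are printed for the 3 members of each class with the smallest p for both inhibitors against DMSO, the 3 with the smallest p for DMSO against day 0, and those that rose. Members and lists were chosen with earlier results of these data known. Alternatives covered the filter, the probe set, normalization, the mouse block, the arrays in the fit, the prior and each array left out.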

Additional observations from a re-analysis of the deposited data

Results flagged for a closer look

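In 3 of 34 members, 1 day-0 array lay apart from the other 8, by a gap over the range of the 9 arrays above the 95% critical value of 0.493. Chance gives this in about 1 in 20 groups. Irgm1 was highest in mouse 2, with a gap of 0.555 of the range. Ifi27l2a was lowest in mouse 1, with a gap of 0.695, and Ifitm1 was lowest in mouse 1, with a gap of 0.558.

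The day-5 level of Ifi202b differed between the treatments where the day-5 groups, which are different mice, were compared directly. The difference was −4.21 log2 units for ruxolitinib against DMSO and −2.95 for the mean of both inhibitors against DMSO. Neither call was kept without ruxolitinib mouse 4 or without either DMSO array. With mouse as a fixed block neither passed (−3.79, adjusted p = 0.265, and −2.94, 0.534).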

How the results depend on the processing

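Of 61 calls of members and comparisons, 30 were kept under every alternative run. Over 88 results and 2307 values, 2156 kept their direction and side of the threshold, 114 lost a call, 24 gained one and 13 reversed. With mouse as a fixed block (the replicate block), 8 members fell with ruxolitinib in place of 18, 17 in place of 22 with tofacitinib and 18 in place of 15 with DMSO, 1 in place of 2 rose with tofacitinib, and 0 in place of 1 passed for ruxolitinib or both inhibitors against DMSO. The block ended 19 calls, 10 of them with ruxolitinib (Cxcl9, Dtx3l, Eif2ak2, Ifi35, Ifih1, Irf1, Irf7, Irf9, Samhd1 and Xaf1) and 6 with tofacitinib (Cxcl9, Gbp2, Ifi202b, Ifi35, Irf1 and Rtp4). It reversed DMSO against day 0 for Bst2 (−0.39) and Rtp4 (−0.25) and both inhibitors against DMSO for Bst2 (0.22), Iigp1 (0.66) and Irgm1 (0.13). The call for both inhibitors against DMSO also went to 0 with no filter, a filter at log2 6, median centring, only the groups compared or only the paired mice, and that for ruxolitinib against DMSO with only the groups compared. Quantile normalization, median centring and only the paired mice gave 2 rises with DMSO in place of 1. The same 3 settings and the mean of probe sets gave 2 rises with ruxolitinib in place of 1. Leaving out 1 array at a time gave 16 to 23 falls and 0 to 2 rises with tofacitinib, 12 to 19 and 0 to 2 with ruxolitinib, 10 to 18 and 1 to 3 with DMSO, and 0 to 1 calls for ruxolitinib or both inhibitors against DMSO. A lone DMSO or ruxolitinib array is then assumed to vary like the other groups. Such omissions moved Ifi202b with ruxolitinib between −2.36 and 0.65, Irgm1 with DMSO between −0.37 and 0.33 and Parp9 for both inhibitors between −0.85 and 0.18. Quantile normalization gave 0.0043 for Irgm1 with DMSO, the shared probe set 1.82 for Ifi202b with ruxolitinib, and, among alternatives added after seeing the data, other probe sets gave 0.25 for Ifi35 with tofacitinib and 0.018 for Samhd1 for both inhibitors. The cause of these changes was not tested. The few day-5 arrays limit all comparisons between treatments. Members such as Usp18, Irf7, Oasl2, Rtp4, Iigp1 and Cxcl9 read close to the control probe sets in some or all day-5 arrays.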

Other observations

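The probe set shared by Isg15 and Gm9706, which could not stand for Isg15, the ubiquitin-like modifier that Usp18 removes, read 3.64, 3.503 and 3.74 with tofacitinib, 3.54 and 3.61 with ruxolitinib and 3.94 and 4.33 with DMSO, against 4.00 to 6.46 at day 0. The inhibitor-treated arrays and 1 DMSO array were under the day-0 range. It fell with tofacitinib (log2 −1.19, adjusted p = 0.0251), and differed by −1.27 (0.0519) with ruxolitinib and −0.78 (0.187) with DMSO. Socs3, a feedback inhibitor of Janus kinases, differed from day 0 by −1.81 with tofacitinib, −1.85 with ruxolitinib and −0.43 with DMSO (adjusted p = 0.235 for DMSO), and by −1.40 (0.0549) between the mean of both inhibitors and DMSO. Il18, a cytokine that induces interferon gamma, differed from day 0 by −0.23, −0.02 and −1.49, and by 1.36 (0.0549) between the mean of both inhibitors and DMSO.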
